A study of Xenopus laevis with 3 samples.

Results

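Tubulins, the kinesin and dynein motors, dynactin and the proteins that nucleate, fold, bind or sever microtubules were examined in inner ear tissue of Xenopus laevis juveniles. Members were chosen by a rule on gene symbols, among probe sets (Xl-PSIDs) that carry exactly 1 symbol. The rule, the role classes and the marker lists were set with earlier results of these data known. The L and S copies of the allotetraploid genome were joined into 1 gene. The members were 73 genes with 122 Xl-PSIDs, of 9240 genes with 15495 Xl-PSIDs in all. The symbols chosen left out the kinesins kifc1 and kifc3 and axonemal dynein chains such as dnah9. The 3 arrays form a single group, juveniles of about 3 months of age that came from a commercial supplier, and the labels state neither a genotype nor a treatment. Replicates 1, 2 and 3 each held RNA pooled from the inner ears of separate animals, 5, 5 and 6 of them, with mean weights of 9.0, 9.6 and 9.6 g. No other stage was analysed here, and no difference between stages could be tested.

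Microtubules are hollow polymers of alpha and beta tubulin dimers. They start from gamma-tubulin ring complexes, grow and shrink at ends read by end-binding proteins, and serve as tracks for kinesins, most of which walk toward the plus end, and for dynein, which walks toward the minus end with its cofactor dynactin. In the inner ear they fill the axons of the sensory neurons, form the core of the kinocilium beside the stereocilia of each hair cell, and form stiff bundles in supporting cells of the mammalian cochlea.

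Values are GCRMA intensities on the log2 scale in arbitrary units (a.u.), as deposited, where probe sets without signal lie near 2. A probe set was called detected when its mean over the arrays was 4 or more, the intensity minimum that the study methods set. The intensity of a probe set depends on its probes, so levels of different probe sets or genes were not ranked. Of the 122 member Xl-PSIDs 96 were detected, 78.7%, beside 72.8% of all Xl-PSIDs with 1 symbol and 64.4% of all non-control Xl-PSIDs. Of the 73 genes 57 had at least 1 detected Xl-PSID, 78.1%, beside 80.2% of all genes. The limma test for means above 4 (one-sided), adjusted over all 32539 non-control Xl-PSIDs, called 95 of the 122 member Xl-PSIDs (77.9%), beside 70.8% of those with 1 symbol and 62.2% of the whole array. By gene the same test called 56 of 73 (76.7%), beside 78.5% of all genes. By gene these shares lay near the background, so detection did not set the members apart from other genes. The counts of detected genes by class below stand beside the same 80.2%, and each class holds few genes.

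The tissue was checked on markers of the cells it may hold. Of 5 measured hair cell markers 3 were detected (myo6, ush1c and calb1), while lhx3 and barhl1 lay near 2 and atoh1, pou4f3 and myo7a had no Xl-PSID with 1 symbol. Of 20 measured neuron markers 18 were detected, without syt1 and elavl3. Markers of other cells were detected too, with 4 of 5 Schwann cell, 11 of 11 skeletal muscle and 4 of 4 erythrocyte genes. Of all genes with 1 symbol 80.2% were detected, so these counts alone do not show which cell types were present. The median over all Xl-PSIDs was 7.57, 7.49 and 7.53 on replicates 1, 2 and 3. In such bulk tissue, fewer cells of a type and less RNA per cell cannot be told apart.

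Every beta tubulin measured was detected, beside 80.2% of all genes with 1 symbol. These were 6 genes with 10 Xl-PSIDs, whose means lay between 11.07 and 14.81. Class I beta tubulin (tubb), the broadly expressed isotype of mammals, gave 13.80, 13.76 and 13.55 on replicates 1, 2 and 3. tubb4b, which mammals use in the axonemes of cilia, gave 12.61, 12.35 and 12.14 for its L copy and 12.04, 11.80 and 11.79 for its S copy. Both tubb and tubb4b were thus highest on replicate 1 and lowest on replicate 3, by less than 0.5 in every case. tubb4a, enriched in the nervous system of mammals, gave 14.77, 14.80 and 14.86, and its other Xl-PSID ran in the same order with a range of 0.08. tubb6, a minor isotype, gave 11.62, 11.64 and 11.31 for the L copy and 11.39, 11.26 and 11.12 for the S copy.

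The isotypes tubb2b and tubb3 had ranges of 0.86 and 1.80 between the pools, wider than those of the other beta tubulins. tubb2b, known in Xenopus as N-tubulin and used there as a marker of differentiated neurons, gave 12.14, 11.71 and 11.28 on replicates 1, 2 and 3. tubb3, the class III isotype that marks neurons in vertebrates, gave 11.94, 11.12 and 10.14, a mean of 11.07 ± 0.90 (SD, n = 3) and a limma adjusted p of 0.0013 against the minimum of 4. Its range of 1.80 between the highest and the lowest array was the largest among the detected members and exceeded that of 98.4% of all detected Xl-PSIDs with 1 symbol, and of 99.7% of the 3571 whose means lay within 1 of its own. Replicate 1 was high and replicate 3 low for both genes, and each value of replicate 2 lay between.

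Over the beta tubulins, 7 of 10 Xl-PSIDs were highest on replicate 1, intermediate on replicate 2 and lowest on replicate 3, against 22 of all 96 detected member Xl-PSIDs (22.9%) and 17.7% of all detected Xl-PSIDs with 1 symbol. The exceptions were both tubb4a Xl-PSIDs, lowest on replicate 1, and tubb6.L, whose replicates 1 and 2 differed by 0.02. The count was 7 after centring each array on its median and 6 after quantile normalization. These 10 Xl-PSIDs are not independent, since they come from 6 genes, and tubb and tubb4b each have 2 of those in this order. By the Xl-PSID of highest mean, tubb, tubb2b, tubb3 and tubb4b ran in this order, and tubb4a and tubb6 did not. Of the 7 detected alpha tubulin Xl-PSIDs, 4 ran in this order and 6 were lowest on replicate 3, under all of these scalings. These 7 come from only 4 genes, and tuba1c has 3 of them. Among all detected Xl-PSIDs with 1 symbol, 38.6% were lowest on replicate 3.

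Alpha tubulins were detected for 4 of 8 genes and 7 of 15 Xl-PSIDs, beside 80.2% and 72.8% of all those with 1 symbol. tuba1c gave 13.60, 13.55 and 13.46 on replicates 1, 2 and 3 for its S copy, and 7.43, 7.84 and 8.02 for its L copy, so the copies ran in opposite orders over the arrays. tuba5 gave 13.14, 12.71 and 12.47. tuba4b and tuba1cl.3 held 11.24, 11.34 and 11.18 and, for a probe set that may match several transcripts, 9.70, 9.77 and 9.17. Among the undetected genes, tuba1al, tuba8, tubal3.1 and the L copy of tuba1l lay between 2.01 and 2.38 on every array, at the floor of the method. The S copy of tuba1l was the exception with 3.64, 2.79 and 2.40, all under the minimum of 4.

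**Figure D1:**
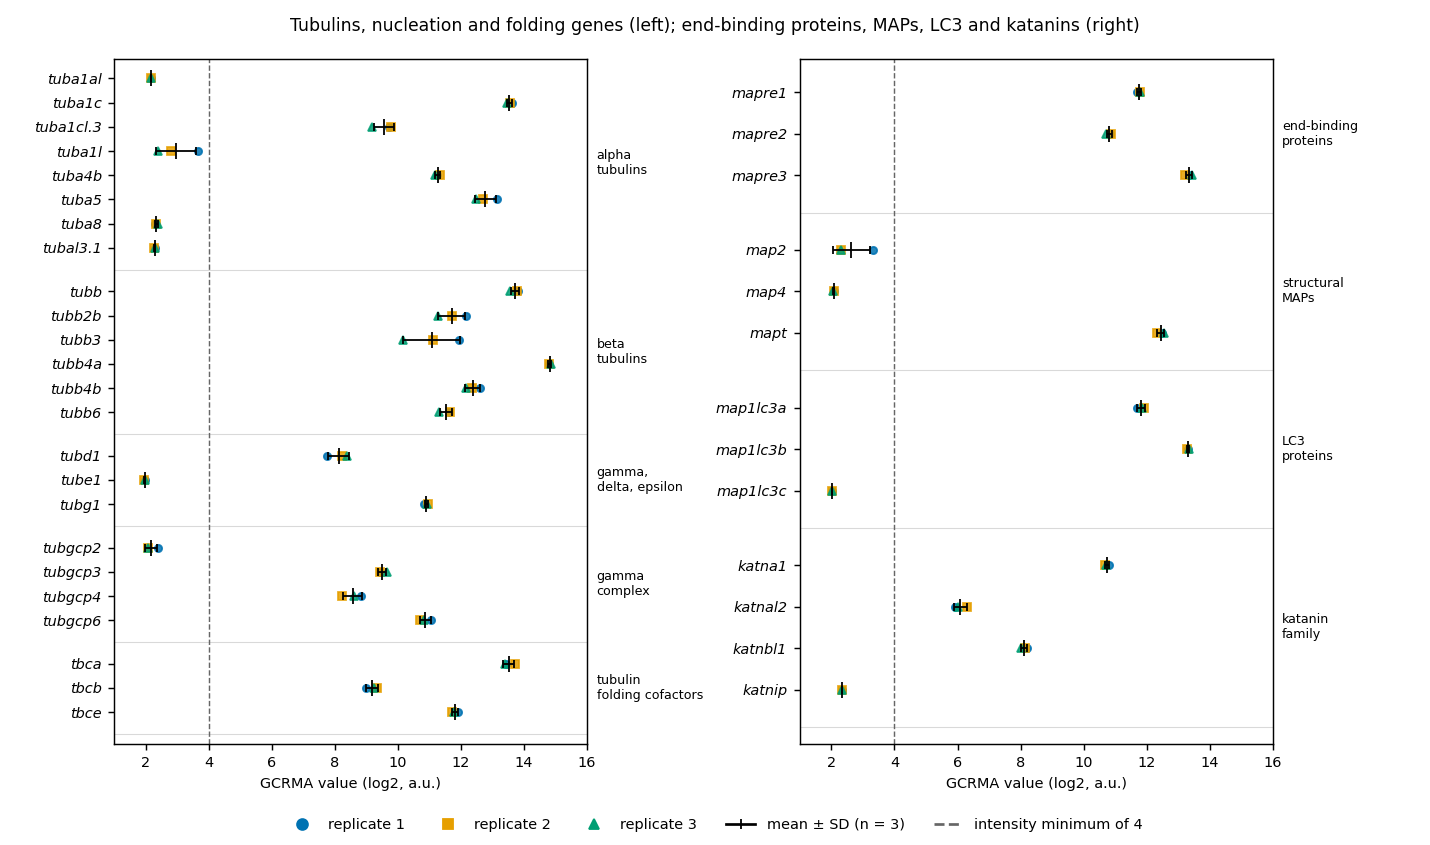
Log2 GCRMA value (x axis, a.u.) of the Xl-PSID of highest mean of each gene for tubulins, nucleation and folding genes (left) and end-binding proteins, structural MAPs, LC3 proteins and katanins (right), with 1 symbol per replicate, the mean ± SD (n = 3) in black and the intensity minimum of 4 dashed. The 6 beta tubulins all lie above 10 on every array, 4 alpha tubulins lie at or near the floor, and tubb3 has the widest spread of the genes above 4.

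Gamma-tubulin (tubg1), the subunit that seeds new microtubules, was detected on all 4 of its Xl-PSIDs. The Xl-PSID of highest mean, of the S copy, gave 10.83, 10.95 and 10.93 on replicates 1, 2 and 3 and so hardly varied. The other Xl-PSID of the S copy gave 8.42, 8.46 and 7.73, with a range of 0.73. One of the L copy, which may match several transcripts, gave 8.12, 7.47 and 8.60, with a range of 1.13. Delta-tubulin (tubd1) gave 7.75, 8.23 and 8.39, whereas epsilon-tubulin (tube1) lay between 1.95 and 1.96. Delta- and epsilon-tubulin are both needed for the triplet microtubules of centrioles, so here 1 partner was detected and the other was not, each on a single Xl-PSID.

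Of the gamma-tubulin complex proteins, which arrange gamma-tubulin into a ring, 3 of 4 were detected. tubgcp3, a subunit of the small complex, averaged 9.51 ± 0.13 (SD, n = 3) on one Xl-PSID, and tubgcp4 and tubgcp6, which belong only to the full ring, averaged 8.55 ± 0.31 and 10.86 ± 0.18. tubgcp2, the partner of tubgcp3 in the small complex, gave 2.39, 2.06 and 2.06 on its 1 Xl-PSID. The 4 Xl-PSIDs of tubgcp3 disagreed, with means of 3.53, 3.91, 5.52 and 9.51, so 2 lay under the minimum and 2 above it.

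The 3 measured cofactors that fold tubulin were detected. tbca, which holds beta tubulin, averaged 13.51 ± 0.17, tbce, which acts on alpha tubulin, averaged 11.79 ± 0.09, and tbcb, which also holds alpha tubulin, averaged 9.18 ± 0.18 (SD, n = 3 each). Of their 5 Xl-PSIDs 4 were highest on replicate 2, beside 37.2% of all detected Xl-PSIDs with 1 symbol. These 4 are not independent, since they come from tbca and tbcb only and tbcb has 3 of them. The L copy of tbcb had 8.96, 9.07 and 8.07, a range of 1.00 that came from the low value of replicate 3. No Xl-PSID with 1 symbol was present for tbcc or tbcd.

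Kinesins of mitosis divided into 5 detected and 5 undetected genes, and 9 of 16 Xl-PSIDs reached a mean of 4. Over all genes and all Xl-PSIDs with 1 symbol, 80.2% and 72.8% were detected. kif15, a spindle motor first described in Xenopus, gave 8.74, 9.02 and 9.28 on replicates 1, 2 and 3 for its L copy and 6.93, 6.53 and 7.13 for its S copy. kif20a, which acts in cytokinesis, gave 7.03, 6.47 and 6.89 for its S copy. kif22, which pushes chromosome arms, gave 5.55, 5.86 and 5.28 for its L copy, on an Xl-PSID that may match several transcripts. These 3 genes were above 4 on every array.

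kif4a, a chromokinesin of the central spindle, was also above 4 on every array, with 5.22, 5.11 and 6.29. Its only Xl-PSID may match several transcripts, and its mean was called above 4 by limma with an adjusted p of 0.0219. Other mitotic kinesins lay at the edge of detection. kif23, a motor subunit of centralspindlin, gave 4.40, 3.50 and 4.55, and its mean of 4.15 was not called by limma (adjusted p = 0.503). It was the single member Xl-PSID detected by its mean and not by the test. kif2c, a depolymerase of kinetochores, gave 3.25, 4.24 and 4.22, and kif11, the motor that pushes spindle poles apart, gave 3.85, 3.29 and 4.23 for its L copy and 4.13, 2.61 and 3.12 for its S copy, so both genes crossed 4 on some arrays with means below it. kif18a, kif18b and kif20b lay between 1.94 and 2.11 on every array.

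Of the 9 detected mitotic kinesin Xl-PSIDs 7 were highest on replicate 3 and 6 were lowest on replicate 2, beside 29.0% and 29.2% of all detected Xl-PSIDs with 1 symbol. These counts became 6 and 5 after quantile normalization or centring. The 9 Xl-PSIDs are not independent, since they come from 5 genes and kif20a has 3 of them. By the Xl-PSID of highest mean, kif15, kif23 and kif4a were highest on replicate 3, kif20a on replicate 1 and kif22 on replicate 2. Among those highest on replicate 3, the S copy of kif22 and 1 Xl-PSID of kif20a.L had ranges of only 0.03 and 0.09. The shift of a gene group on 1 array is given as the median over its detected Xl-PSIDs of the value on that array minus the mean of the other arrays. For mitotic kinesins the shifts were -0.01, -0.40 and 0.40 on replicates 1, 2 and 3, against 0.07, 0.05 and -0.06 for all members and 0.01, 0.03 and -0.03 for all detected Xl-PSIDs with 1 symbol. Without a filter on low values the shifts on replicates 2 and 3 were -0.22 and 0.22. The shift on replicate 2 became -0.11 without replicate 3, and that on replicate 3 became 0.15 without replicate 2. A list of proliferation markers that are no members, with 15 of 24 measured genes detected, shifted by 0.07, -0.19 and 0.17 on the same arrays, and its median level was 6.58, 6.43 and 6.80. Among these, mki67 and pcna were detected, while ccnb1, birc5 and mcm3 lay near 2. mki67 gave 10.11, 9.42 and 10.38 and was highest on replicate 3, whereas pcna gave 11.91, 11.86 and 11.74 and was lowest there. Of the 24 detected Xl-PSIDs of the list, 7 were highest on replicate 1 and 7 lowest on replicate 3. The part of proliferating cells in the kinesin pattern was not tested.

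**Figure D2:**
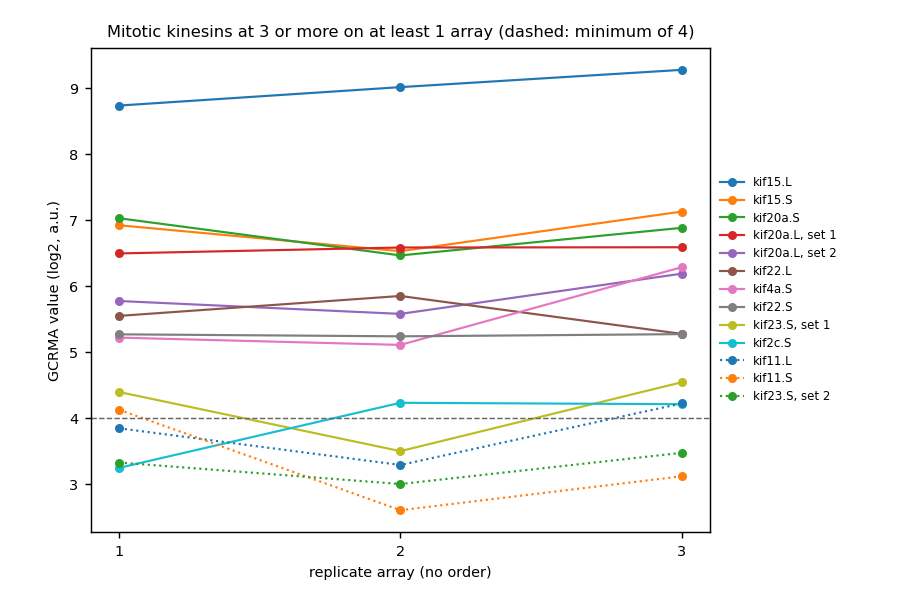
Log2 GCRMA value (y axis, a.u.) of the 13 mitotic kinesin Xl-PSIDs that reached 3 on at least 1 array, by replicate (x axis). Lines, solid or dotted, only join the values of 1 Xl-PSID, since replicates have no order, and kif11, kif23 and kif2c lie around the dashed minimum of 4 while kif15 and kif20a stay above it on every array.

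Transport kinesins were measured for 5 genes, of which 4 were detected. kif5b, the broadly expressed heavy chain of conventional kinesin, gave 10.99, 10.64 and 10.95 on replicates 1, 2 and 3. The motor pair that carries cargo along cilia was represented by kif3a with 8.34, 8.01 and 8.11 and by kif3b with 8.14, 7.27 and 8.10. kif21a, which restrains microtubule growth in axons, gave 11.43, 10.80 and 10.68. All 4 were highest on replicate 1, beside 32.7% of all detected Xl-PSIDs with 1 symbol. However, the replicates 1 and 3 of kif5b and kif3b differed by less than 0.05, and 3 of 4 were highest on replicate 1 after quantile normalization. kif13b lay between 1.95 and 1.96. The heavy chains kif5a and kif5c and the motors kif1a, kif1b, kif7 and kif17 had no Xl-PSID with 1 symbol and were not analysed here.

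Kinesin light chains, which couple conventional kinesin to its cargo, showed the largest shift of a role class on replicate 1, with medians of 0.60, -0.09 and -0.68 on replicates 1, 2 and 3 over 5 Xl-PSIDs of only 2 genes. klc1, rich in neurons of mammals, gave 11.03, 9.64 and 9.32 on one Xl-PSID and 10.41, 9.83 and 9.44 on the other. Its range of 1.70 on the first was wider than that of 98.2% of all detected Xl-PSIDs with 1 symbol, and its second Xl-PSID kept the same order over the arrays with a range of 0.97. klc4 gave 9.81, 9.59 and 9.88 on its Xl-PSID of highest mean, where replicate 3 was highest, while its other Xl-PSIDs gave 9.80, 9.77 and 9.24 and 8.89, 8.68 and 7.89, with replicate 3 lowest. The Xl-PSIDs of klc4 thus did not share an order, and those of klc1 did.

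The role class of kinesins that shorten microtubules held 2 genes, kif2a and kif19, and both were detected. Mitotic kinesins were kept out of this class, among them kif2c, kif18a and kif18b, given above and not detected. kif2a, which trims microtubule ends in neurons and spindles, gave 12.30, 12.30 and 12.34 for its S copy. kif19, which limits the length of motile cilia in the mouse, gave 11.19, 10.64 and 10.88.

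Dynein light chains among the members were detected without exception, 7 genes with 12 Xl-PSIDs, beside 80.2% of all genes with 1 symbol. dynll1, a small dimer that also serves complexes other than dynein, averaged 13.10 ± 0.20, on an Xl-PSID that may match several transcripts. dynlrb1 of the roadblock family averaged 11.98 ± 0.06 and dynlt1 of the Tctex family averaged 12.05 ± 0.15 (SD, n = 3 each). Of the 12 Xl-PSIDs 8 were highest on replicate 2 and 8 lowest on replicate 1, and none was highest on replicate 1, against 37.2%, 31.1% and 32.7% of all detected Xl-PSIDs with 1 symbol. These 12 are not independent, since dynll1 has 4 of them and dynlt5 has 3. By the Xl-PSID of highest mean, dynll2, dynlrb1, dynlrb2 and dynlt1 were highest on replicate 2, and dynll1, dynlt3 and dynlt5 on replicate 3. dynlrb2, an isoform of ciliated cells in mammals, gave 11.11, 11.70 and 11.34 on replicates 1, 2 and 3, and dynll2, the close relative of dynll1, gave 10.94, 11.30 and 10.51. Both genes peaked on replicate 2. The Tctex relatives dynlt3 and dynlt5 gave 10.87, 11.19 and 11.24 and 10.58, 10.85 and 10.99 and were lowest on replicate 1. The median shifts of the class were -0.28, 0.34 and -0.02, and 8 Xl-PSIDs stayed highest on replicate 2 after quantile normalization and after centring. The shifts of the transport kinesins were 0.36, -0.29 and 0.04, of the opposite sign on replicates 1 and 2, also after quantile normalization and after centring. These shifts are a description, without a test. Pigment cell markers, with pmel and tyrp1 of 3 measured genes detected and mitf near 2, shifted by -0.67, 0.40 and 0.12 over 3 Xl-PSIDs, and their median level was 11.40, 12.12 and 12.03. Their part in the light chain pattern was not tested.

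The other dynein chains among the members were detected for all 4 genes, beside 80.2% of all genes with 1 symbol. The axonemal dynein chains dnai1, dnai2 and dnah9 were no members. As ciliated cell genes, dnai1 and dnai2 were detected, with means of 8.91 and 8.41, and dnah9 was not. dync1i2, an intermediate chain that binds dynactin, gave 11.80, 11.31 and 11.88, and dync1li1, a light intermediate chain that binds cargo adaptors, gave 11.72, 11.88 and 11.92 for its L copy. dync1li2, its relative, held 5.20, 5.19 and 5.19, and dync2i2, of the dynein of intraflagellar transport, gave 6.45, 6.17 and 6.08. Their ranges lay between 0.02 and 0.56, the widest being that of dync1i2, which was low on replicate 2. The heavy chains dync1h1 and dync2h1, which carry the motor domains, had no Xl-PSID with 1 symbol and were not analysed here.

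Dynactin was detected for all 6 subunits measured and for 8 of 9 Xl-PSIDs. The shares over all genes and all Xl-PSIDs with 1 symbol were 80.2% and 72.8%. dctn1, the large subunit that grips the microtubule, gave 12.89, 12.58 and 12.70 on replicates 1, 2 and 3. dctn2 (dynamitin) gave 10.99, 10.56 and 10.87 for its L copy, and dctn3 of the same shoulder gave 11.16, 11.24 and 10.73. The pointed-end subunits dctn4, dctn5 and dctn6 averaged 9.15 ± 0.17, 12.20 ± 0.06 and 8.64 ± 0.47 (SD, n = 3 each). The second Xl-PSID of dctn6 held 1.96 on each array, so detection of dctn6 rests on one of a pair. Of the 8 Xl-PSIDs 2 were highest on replicate 1, 3 on replicate 2 and 3 on replicate 3. Those lowest numbered 2, 4 and 2 on replicates 1, 2 and 3, beside 31.1%, 29.2% and 38.6% of all detected Xl-PSIDs with 1 symbol.

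**Figure D3:**
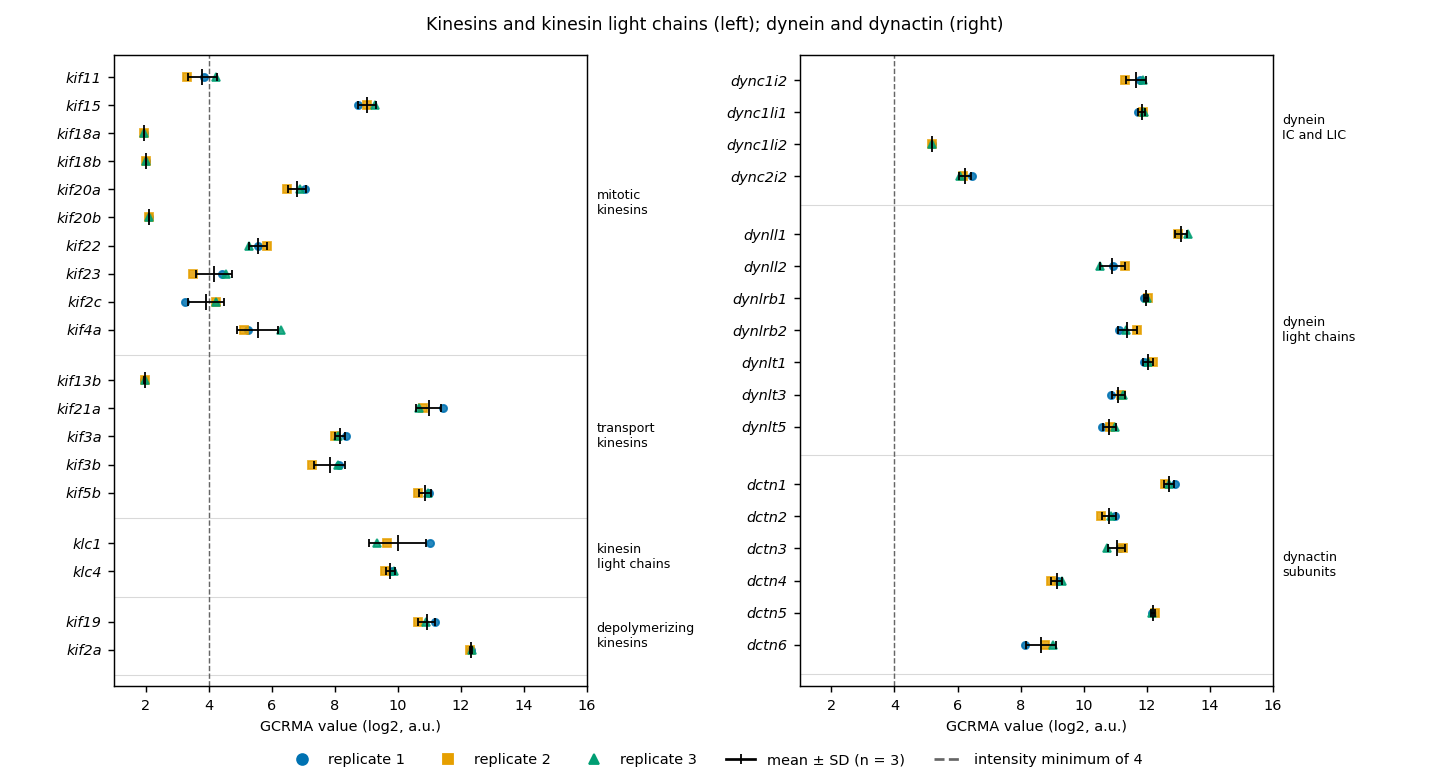
Log2 GCRMA value (x axis, a.u.) of the Xl-PSID of highest mean of each gene for kinesins and kinesin light chains (left) and dynein and dynactin (right), with 1 symbol per replicate, the mean ± SD (n = 3) in black and the intensity minimum of 4 dashed. All member genes of dynein and dynactin lie above 4 on every array, whereas 5 of 10 mitotic kinesins and kif13b have means below 4. Over all genes with 1 symbol 80.2% were detected.

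End-binding proteins, which track growing plus ends, were detected for all 3 genes. mapre1 gave 11.69, 11.80 and 11.79 for its S copy, on an Xl-PSID that may match several transcripts. mapre2 gave 10.85, 10.86 and 10.72, and mapre3, enriched in neurons of mammals, gave 13.34, 13.23 and 13.43. The 4 Xl-PSIDs of mapre2 disagreed, since 1 of them lay at 1.92 on each array and another gave 8.55, 8.48 and 7.54, with a range of 1.02.

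Of the structural microtubule-associated proteins only tau (mapt), which binds along axonal microtubules, was detected among the 3 measured. mapt gave 12.47, 12.33 and 12.54 for its L copy and 10.78, 10.92 and 10.78 for its S copy, both within 0.22. A further Xl-PSID of mapt.L, which may match several transcripts, gave 10.12, 9.69 and 8.95, with a range of 1.18. The Xl-PSIDs of this single gene thus differed on whether replicate 3 was low. map2, the dendritic relative of tau in mammals, gave 3.31, 2.30 and 2.30, and map4, its relative in other cells, lay between 2.06 and 2.08. map1a, map1b, map1s and map7 had no Xl-PSID with 1 symbol.

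LC3 proteins, named as light chains of MAP1 and best known for marking autophagosomes, were detected for 2 of 3 genes. map1lc3a gave 11.69, 11.92 and 11.85 on replicates 1, 2 and 3 for its S copy and 8.45, 9.28 and 8.22 for its L copy, with a range of 1.07. map1lc3b averaged 13.31 ± 0.03 (SD, n = 3) on an Xl-PSID that may match several transcripts, and map1lc3c lay between 2.02 and 2.03. Of the 7 detected Xl-PSIDs 5 were highest on replicate 2, beside 37.2% of all detected Xl-PSIDs with 1 symbol. These 7 came from only 2 genes, and the map1lc3b Xl-PSID of highest mean was highest on replicate 3.

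Katanins cut microtubules. The catalytic subunit katna1 gave 10.82, 10.68 and 10.72 on replicates 1, 2 and 3, and its relatives katnal2 and katnbl1 averaged 6.08 ± 0.21 and 8.11 ± 0.10 (SD, n = 3 each). katnip, a katanin-interacting protein of cilia, lay at 2.34 on each array.

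In all, 16 member genes had no detected Xl-PSID. Besides the alpha tubulins tuba1al, tuba1l, tuba8 and tubal3.1 these were tube1, tubgcp2, the kinesins kif11, kif13b, kif18a, kif18b, kif20b and kif2c, and map2, map4, map1lc3c and katnip. Of the 26 undetected Xl-PSIDs 18 stayed below 3 on every array. A gene is undetected here only on Xl-PSIDs with 1 symbol, since 16765 further Xl-PSIDs had no symbol, and 42 of the 73 member genes had a single Xl-PSID.

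Agreement between probe sets of a gene was examined next. Of 31 member genes with several Xl-PSIDs 4 had some detected and some not (dctn6, mapre2, tubgcp3 and kif23), 12.9% beside 32.4% of all such genes. Of 22 genes measured on both L and S copies, 18 were detected on both and 4 on neither (kif11, tuba1l, tuba8 and tubal3.1). None was detected on 1 copy alone, beside 14.5% of 2009 such genes on the array. The copies thus matched in detection for every member gene that had both.

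They matched less in how they varied over the pools. Taking the Xl-PSID of highest mean of each copy, the same array was highest for both copies in 7 of 18 genes (38.9%), beside 50.4% of 1518 genes, and lowest for both in 6 of 18 (33.3%), beside 50.7%. The whole order was shared by dctn3 and tubb4b only, 11.1% beside 31.4%. tuba1c, dync1li1 and kif20a are examples of copies in different orders. Many of these ranges were small, with a median of 0.40 over the detected members beside 0.36 over all detected Xl-PSIDs with 1 symbol.

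A range of 1.5 or more, the difference minimum of the study methods taken on the log2 scale, was reached by 2 of 96 detected member Xl-PSIDs, those of tubb3 and klc1, 2.08% beside 2.55% of all. Both fell under 1.5 when replicate 1 or replicate 3 was left out. A range of 1 or more was reached by 9 (9.38% beside 7.22%), which were tubb3, klc1, mapt, kif4a, tubg1, map1lc3a, kif23, mapre2 and tbcb. Of these 9, kif4a, kif23 and tubg1 were highest on replicate 3, map1lc3a and tbcb on replicate 2, and the other 4 on replicate 1. These Xl-PSIDs were picked by their range, so their values are a description. Each array is 1 pool, so animals, RNA preparation and array cannot be told apart.

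**Figure D4:**
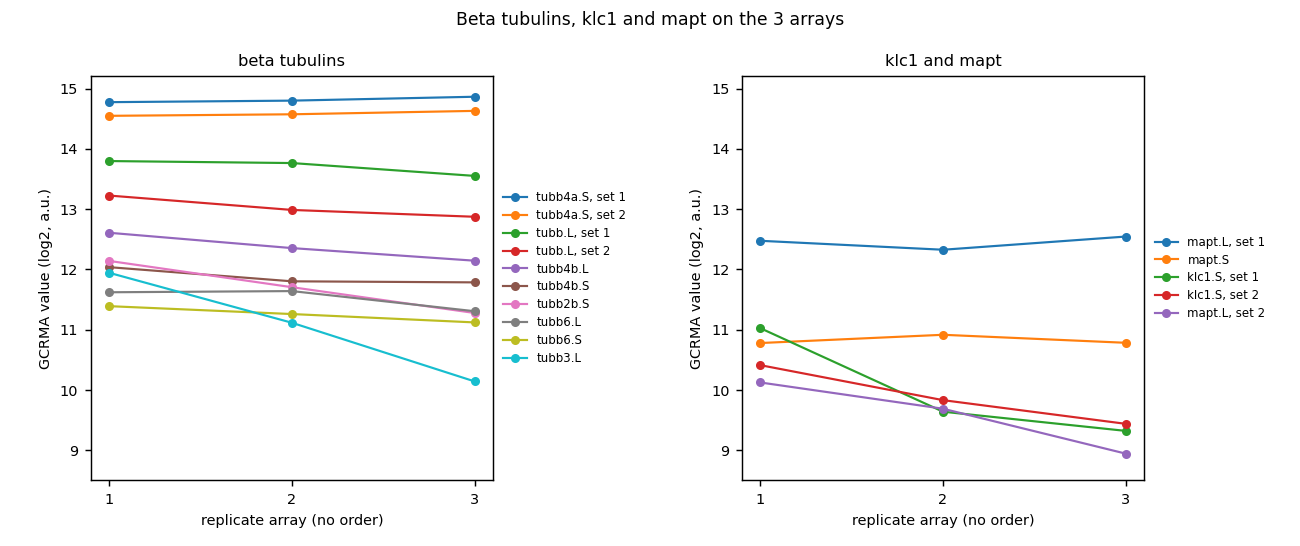
Log2 GCRMA value (y axis, a.u.) of all 10 beta tubulin Xl-PSIDs (left) and of the klc1 and mapt Xl-PSIDs (right) by replicate (x axis). Lines only join the values of 1 Xl-PSID, since replicates have no order. tubb3 spans 11.94 to 10.14 and klc1.S spans 11.03 to 9.32, while tubb4a and the mapt.L Xl-PSID of highest mean differ by 0.22 or less.

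Members known as neuronal in mammals were set beside the neuron markers. Of 16 listed genes 5 were measured and 4 detected (tubb2b, tubb3, tubb4a and mapt, with 7 Xl-PSIDs), and map2 was not. Their median shifts were 0.04, -0.004 and -0.06 on replicates 1, 2 and 3, with 5 of the 7 Xl-PSIDs from tubb4a and mapt. With 1 probe set per gene the shift was 0.34 on replicate 1 and -0.28 on replicate 3. The neuron markers that are no members shifted by 0.96, 0.04 and -0.96 over 28 detected Xl-PSIDs of 18 genes. Of these 25 were highest on replicate 1 and 24 lowest on replicate 3, beside 32.7% and 38.6% of all detected Xl-PSIDs with 1 symbol. Their median level was 11.40, 10.68 and 10.21. Among them snap25 gave 13.60, 13.29 and 12.99, and nefl, a neurofilament subunit, gave 11.70, 10.53 and 10.23. Other markers departed from this order on the Xl-PSID of highest mean. gap43 gave 11.95, 12.39 and 12.08 and prph gave 7.91, 8.01 and 6.77, both highest on replicate 2. rab3a and syn2 were lowest on replicate 2. tubb3, tubb2b and klc1, which was not among the 16 listed genes, ran in the order of most of these markers. By contrast, tubb4a and 2 of 3 mapt Xl-PSIDs did not. That order was also seen for tubb, tubb4b, tuba5 and the S copy of tuba1c, which are not on the neuronal list. The median shifts of hair cell and Schwann cell markers, given below, were likewise highest on replicate 1 and lowest on replicate 3. Single markers differed. All 4 hair cell Xl-PSIDs, 2 of them of calb1, were highest on replicate 1, but myo6 was lowest on replicate 2, with 12.94, 12.50 and 12.73. Of 7 Schwann cell Xl-PSIDs 4 were highest on replicate 1 and 5 lowest on replicate 3, and their median level was 14.07, 14.15 and 13.83. The part of neuron content in the tubb3, tubb2b and klc1 values was not tested.

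RNA quality was read from the control probe sets. The 5′ minus 3′ difference of gapdh was -1.13, -1.04 and -1.36 and that of ef1a was -3.13, -3.0 and -3.87 on replicates 1, 2 and 3, so replicate 3 was lowest on both. That of actin was -12.63, -12.62 and -12.57, where replicate 3 was highest. Means of detected Xl-PSIDs with 1 symbol reached 15.78 at most, so the actin 5′ probe set probably lay near the floor. Its difference therefore says little on RNA quality. The study methods report that every replicate used met a minimum RNA integrity number. Over all detected members 40 of 96 Xl-PSIDs were lowest on replicate 3 (41.7%), beside 38.6% of all detected Xl-PSIDs with 1 symbol. Hair cell markers shifted by 0.93, -0.36 and -0.67 over 4 Xl-PSIDs, and Schwann cell markers by 0.22, 0.10 and -0.26 over 7. Skeletal muscle shifted by -0.29, -0.92 and 0.85, and ciliated cell genes, of which 16 of 20 measured were detected, by 0.05, 0.08 and -0.12. The part of RNA quality and of these cell types in the member values was not tested.

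**Figure D5:**
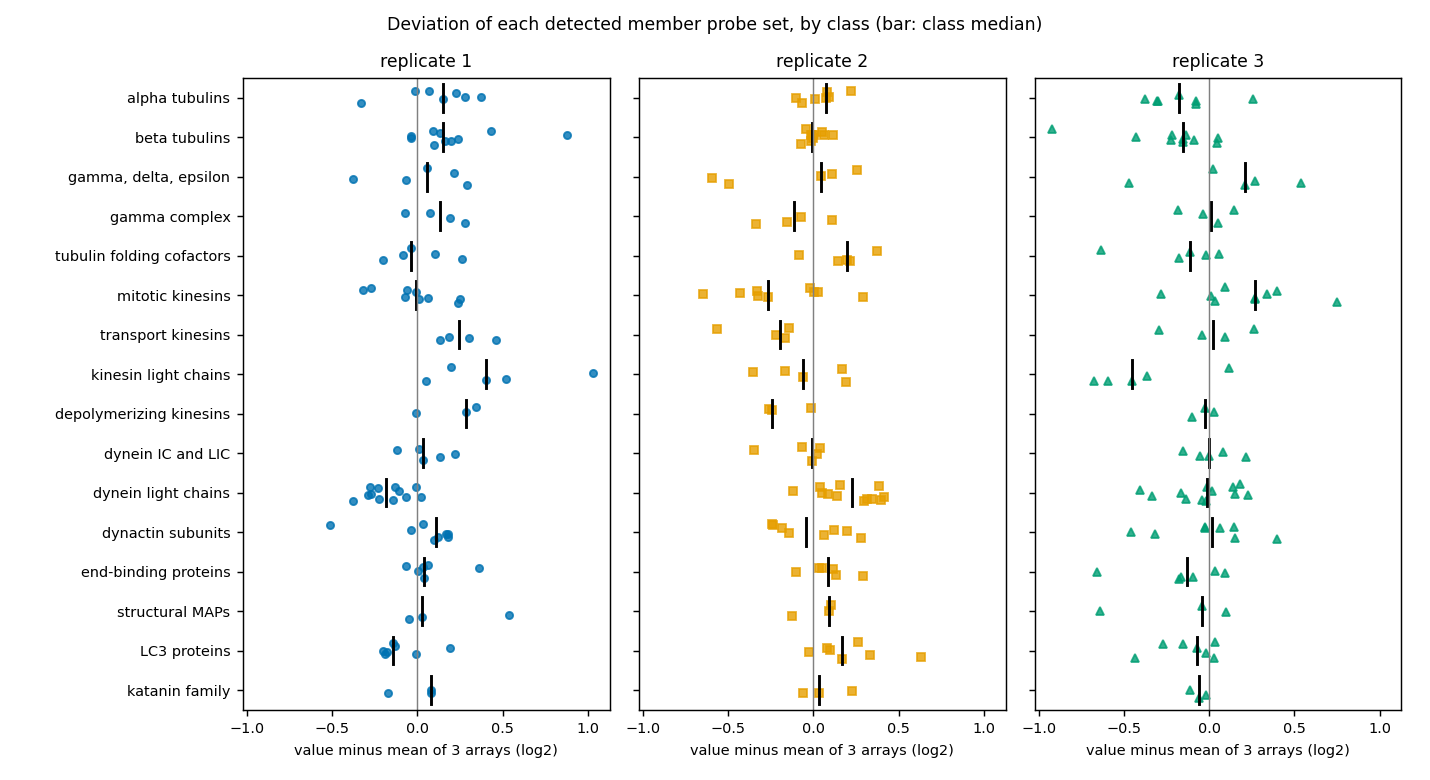
Value of each detected member Xl-PSID minus its mean over the 3 arrays (x axis, log2) by role class (y axis) and replicate (panels), with the class median as a black bar. Kinesin light chains lie right of 0 on replicate 1, most mitotic kinesins lie left of 0 on replicate 2 and right of it on replicate 3, and most dynein light chains lie left of 0 on replicate 1 and right of it on replicate 2.

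Partners of microtubules that were no members by symbol were counted from a list of 94 genes. Among them were adaptors of dynein, stathmins, tubulin-modifying enzymes, plus-end proteins and the kinesins kifc1 and kifc3. Both kinesins, left out of the members by the symbol rule, were detected, with means of 8.92 and 10.62. Of 48 measured genes 46 were detected, beside 80.2% of all genes with 1 symbol, the exceptions being mark1 and ttll7. Their median shifts of 0.06, -0.09 and 0.01 over 72 detected Xl-PSIDs stood beside 0.07, 0.05 and -0.06 for the members.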

How the data were processed

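Inner ear RNA of 3 juvenile replicates was hybridised to GeneChip Xenopus laevis arrays by the authors, who preprocessed the scans with GCRMA in JMP Genomics 5.0. The deposited values are log2 intensities in arbitrary units, 1 for each Xl-PSID on each array. The sources used here do not say whether larval arrays entered the same normalization. GCRMA corrects background by probe sequence and compresses differences near its floor. The 96 control probe sets entered no count, which left 32539, and gave the 5′ minus 3′ differences. Of these 15495 had 1 gene symbol, 279 had several and 16765 had none in the platform annotation. All 122 member symbols were the same in a RefSeq table (Xenopus_laevis_v10.1, matched by Entrez ID), used for names only.

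Detection was a mean of 4 or more. A second call came from limma 3.58.1 (R 4.3.3), with an intercept, eBayes, a one-sided alternative above 4 and Benjamini-Hochberg adjustment over all non-control probe sets at 0.05, after a trial on simulated data. Counts and medians used Python 3.11.15, numpy 2.4.6 and pandas 2.3.3. Arrays with equal values have no order. The analysis of variance of the study was not run, because the files hold 1 group. The replicates are pools of separate animals, and their number limits the precision.

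Members, roles and lists were chosen with earlier results of these data known. Named genes were all tubulins, textbook picks per class, the 10 detected members of largest range, undetected members and those whose copies or probe sets differ in detection. A gene is given by its Xl-PSID of highest mean unless stated. Among the 122 member Xl-PSIDs, 19 may match several transcripts, including printed ones of tubb4a and klc4. Other members, such as dynlrb2, kif15, kif19, kif21a and dync2i2, and markers with values, were chosen after their values were seen. Alternatives were other minimums, quantile normalization, centring, other probe set rules and leaving out each replicate. No sequences or coordinates are given.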

Additional observations from a re-analysis of the deposited data

How the results depend on the processing

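Alternatives were other minimums, no filter on low values, quantile normalization, centring each array on its median, 1 probe set per gene, leaving out probe sets that may match several transcripts, and leaving out each replicate. Over all of them 76 to 102 member Xl-PSIDs were detected and limma called 83 to 100. Detected genes numbered 49 to 59, or 75 with the L and S copies counted apart. Xl-PSIDs with a range of 1.5 or more numbered 2, against 9 at a minimum of 1, 0 at a minimum of 2 and 0 to 2 with a replicate left out, where replicates 1 and 3 each gave 0 when left out. For all members the median shift on replicate 2 was 0.05, and -0.0007 without a filter and -0.0107 with 1 probe set per gene, where that on replicate 3 was -0.002. With a replicate left out these shifts lay between 0.0137 and 0.0723 on replicate 1, -0.0137 and 0.0835 on replicate 2, and -0.0835 and -0.0723 on replicate 3. For neuronal members the shift on replicate 1 was 0.34 without a filter and with 1 probe set per gene, that on replicate 2 was 0.0161 after centring, and that on replicate 3 was -0.29 without a filter, -0.0234 after quantile normalization and -0.28 with 1 probe set per gene. With a replicate left out they lay between -0.0039 and 0.15, -0.15 and 0.13, and -0.13 and 0.0039 on replicates 1, 2 and 3. For mitotic kinesins the shift on replicate 1 was 0.0005 at a mean of 6 or more and 0.0532 without probe sets that may match several transcripts. The shifts on replicates 2 and 3 were -0.22 and 0.22 without a filter, and -0.24 and 0.27 at a mean of 6 or more. With a replicate left out that on replicate 1 lay between -0.15 and 0.11, that on replicate 2 between -0.42 and -0.11, and that on replicate 3 between 0.15 and 0.42. The cause of these differences was not tested. Detection near the floor is limited by background, so kif2c, kif11 and kif23 cannot be placed firmly above or below 4. No paired analysis was possible because the arrays form 1 group.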
